A study of Mus musculus with 12 samples.

Results

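The core circadian clock loop was taken as 10 genes, Arntl, Clock, Npas2, Per1, Per2, Per3, Cry1, Cry2, Nr1d1 and Nr1d2, read by symbol from a table of exonic read counts that holds 38087 genes. Each of the 10 symbols stood on 1 row, and all 10 were among the 14235 genes with enough reads to be tested. RNA of the liver had been sequenced in 6 male C57BL/6j mice given recombinant human growth hormone (GH) and 6 given phosphate-buffered saline (PBS). All 12 mice were germ-free, that is, raised without microorganisms, and were 13 to 16 weeks old. GH (50 µg per mouse) or PBS was injected under the skin at ZT 2 and again at ZT 14 on 5 days, and all livers carry the time ZT 2, where ZT (zeitgeber time) counts the hours after lights on. The sources used here do not give whether 50 µg was the amount per injection or per day, nor whether the livers were taken before or after the ZT 2 injection. The hormone was human and the mice received it in pulses set by the injections, which limits what the GH livers model. The design gives 2 views of the loop: GH livers against PBS livers, and the spread and covariation between livers of 1 group at 1 time of day.

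In mammals the loop turns on the heterodimer of ARNTL (also called BMAL1) with CLOCK or its paralog NPAS2, which binds E-boxes and drives transcription of the Per, Cry and Nr1d genes. PER and CRY proteins return to the nucleus and repress that heterodimer, while NR1D1 and NR1D2 (REV-ERB alpha and beta) repress Arntl, Npas2 and Cry1 through ROR elements, at which the ROR receptors activate. In mouse liver Arntl and Npas2 messages peak around the end of the night and Nr1d1 messages rise during the morning and peak around the middle of the day, so ZT 2 falls between their peaks.

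Library totals were 19915346 to 23074700 exonic counts in GH livers and 19523104 to 23278931 in PBS livers. Levels are given as CPM, that is, counts-per-million of the library total after TMM scaling. Hepatocyte markers were Alb, Apoa1, Ttr, Tat, Cps1 and Hnf4a (6 of 6 detected, 0 changed by edgeR's test). They summed to 72129 to 96538 CPM in GH livers and 91257 to 108911 CPM in PBS livers. Cps1 had 7581 to 8591 CPM in GH livers and 8790 to 10683 CPM in PBS livers, without overlap. DESeq2 called Cps1 and Alb lower in GH livers (adjusted p = 0.0104 and 0.0368), where it called 4.06% of its tested genes lower. Summed markers of Kupffer cells, sinusoidal endothelium, stellate cells, cholangiocytes, lymphocytes and neutrophils overlapped between groups. Of the 6 stellate markers 1 passed, Dcn, which encodes the matrix proteoglycan decorin: it had 114 to 137 CPM in GH livers and 151 to 173 CPM in PBS livers (log2 fold change -0.38 ± 0.06, edgeR adjusted p = 0.00296). Of the 4 exocrine pancreas markers 2 were at 0. The erythroid sum did not overlap, with 170 to 244 CPM in GH livers and 56.1 to 162 CPM in PBS livers, and Alas2, the erythroid enzyme of haem synthesis, was the marker of that list that passed the test (log2 fold change 1.14 ± 0.18, GH minus PBS, edgeR adjusted p = 0.00302). The other erythroid marker found, the globin gene Hba-a1, overlapped, with 10.5 to 58.4 CPM in GH livers and 6.38 to 65.1 CPM in PBS livers (adjusted p = 0.733). In bulk tissue, fewer cells of a type and less RNA per cell cannot be told apart. Within either group 4 livers stood apart in the clock genes themselves: GH replicates 5 and 6 and PBS replicates 1 and 2 held the 4 highest values of Nr1d1, Nr1d2, Per3 and Cry2. Their library totals, 21943042 and 23074700 in GH and 22539161 and 20900896 in PBS, lay inside the range of the others. Some results that rest on these livers are given with and without them, and some correlations only without them. The standing of each member's SD among all tested genes is given only with them.

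The DNA elements through which the loop feeds back could be read in the start regions of its own genes, and stretches of 4 members are shown as examples. Of these, Per3 and Nr1d1 had their 4 highest values in the 4 livers named above, and Arntl and Cry1 did not. A link between these elements and the levels in the livers was not tested. The sequences come from RefSeq's promoter windows (build GRCm38.p6, 250 bases before to 50 after an annotated start), in which 9 of the 10 members had an entry. Capitals mark the element, and positions count from the start of transcription. Arntl carried a ROR element at position 31 after 1 of its 2 annotated starts (chr7:113207530-113207559, plus strand). The window of its other start did not hold it. Cry1 carried an E-box at -60 and a variant E-box, read as AACGTG on its own strand, at -79 (chr10:85185055-85185204, minus strand). Per3 carried a D-box, the site of DBP, TEF, HLF and NFIL3, at -205 and again at -158 (chr4:151044766-151044915, minus strand). Nr1d1 carried the variant E-box at -28 (chr11:98775378-98775527, minus strand).
Arntl: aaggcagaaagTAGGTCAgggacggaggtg
Cry1: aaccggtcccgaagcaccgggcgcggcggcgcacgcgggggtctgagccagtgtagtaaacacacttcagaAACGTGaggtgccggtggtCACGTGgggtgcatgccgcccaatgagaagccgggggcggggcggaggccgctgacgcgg
Per3: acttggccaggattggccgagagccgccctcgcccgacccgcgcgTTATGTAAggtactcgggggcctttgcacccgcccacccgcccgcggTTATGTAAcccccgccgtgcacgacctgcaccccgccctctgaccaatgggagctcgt
Nr1d1: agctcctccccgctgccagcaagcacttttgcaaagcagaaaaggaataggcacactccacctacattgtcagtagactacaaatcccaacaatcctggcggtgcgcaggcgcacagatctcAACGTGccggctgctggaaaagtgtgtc
Motifs were searched as exact letters on both strands: the E-box as CACGTG, its variant as CACGTT, the ROR element as TAGGTCA or TGGGTCA, and the D-box as TTATGTAA, TTACGTAA or TTACATAA. Over all 32544 windows of the same length the E-box stood in 7.17%, the variant in 4.71%, the ROR element in 6.48% and the D-box in 1.05%. Among the other members Per1 had an E-box at -166 from 1 of its 2 annotated starts, and Cry2 had the variant at -166. The windows of Clock, Npas2 and Nr1d2 held none of these letters. A match is a string of letters in the window and not a measured binding site.

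The activating arm had similar levels in both groups. Arntl (chr7:113207465-113314126) ran from 31.0 to 43.6 CPM in GH livers with a median of 36.2, and from 22.6 to 48.5 CPM in PBS livers with a median of 35.1. All 6 GH values lay inside the PBS range. Clock (chr5:76209868-76304792), the constant partner, ran from 104 to 113 CPM in GH livers with a median of 112, and from 88.8 to 113 CPM in PBS livers with a median of 102. It was the steadiest member: its highest liver was 1.09 times its lowest in GH and 1.27 times in PBS. Npas2 (chr1:39193731-39363236), which can stand in for Clock, ran from 2.70 to 8.53 CPM in GH livers with a median of 5.96, and from 1.60 to 6.13 CPM in PBS livers with a median of 5.18. Its low values were GH replicate 5 at 2.70 CPM, PBS replicate 1 at 1.60 CPM and PBS replicate 2 at 2.49 CPM, and the other 9 livers had 4.57 CPM or more. Arntl was lowest of its group in GH replicate 5 and PBS replicate 1 as well, but GH replicate 6 had the highest Arntl of the GH livers.

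Of the period genes, which encode the partners that carry CRY into the repressing complex, Per1 and Per2 did not follow the split between livers. Per1 (chr11:69095217-69109960) ran from 8.08 to 11.1 CPM in GH livers with a median of 9.50, and from 6.27 to 15.8 CPM in PBS livers with a median of 12.9. All 6 GH livers lay below the PBS mean of 11.8 CPM, but inside the PBS range. Per2 (chr1:91415982-91459324) ran from 4.39 to 16.1 CPM in GH livers with a median of 8.98, and from 4.79 to 9.94 CPM in PBS livers with a median of 7.48. GH replicates 2 and 3, at 12.6 and 16.1 CPM, were above every PBS liver, and GH replicate 6 was the lowest of all 12. Per3 (chr4:151003652-151044665), the third period gene, ran from 1.75 to 4.31 CPM in GH livers with a median of 2.14, and from 0.918 to 6.48 CPM in PBS livers with a median of 1.85. GH replicates 5 and 6 had 4.31 and 3.34 CPM, PBS replicates 1 and 2 had 4.37 and 6.48 CPM, and no other liver was above 2.24 CPM.

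The cryptochromes, the repressors of the ARNTL heterodimer, parted from each other. Cry1 (chr10:85131700-85185064) ran from 15.2 to 22.3 CPM in GH livers with a median of 19.6, and from 9.44 to 26.1 CPM in PBS livers with a median of 15.5. GH replicate 5 and PBS replicate 1 were the lowest of their groups, as for Arntl. Cry2 (chr2:92403646-92434043) ran from 16.1 to 25.0 CPM in GH livers with a median of 17.5, and from 11.2 to 22.8 CPM in PBS livers with a median of 13.3. GH replicates 5 and 6 had 24.7 and 25.0 CPM and PBS replicates 1 and 2 had 22.8 and 22.2 CPM. The other 4 GH livers had 16.1 to 17.7 CPM and the other 4 PBS livers 11.2 to 13.9 CPM. Within those 8 livers the groups thus did not overlap. The share of all tested genes without overlap in those 8 livers is not given here.

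The nuclear receptors that repress Arntl varied most. Nr1d1 (chr11:98767932-98775333) ran from 7.01 to 45.1 CPM in GH livers with a median of 12.7, and from 0.976 to 54.8 CPM in PBS livers with a median of 14.1. GH replicates 5 and 6 had 45.1 and 31.2 CPM, against 7.01 to 15.0 CPM in the other GH livers. PBS replicates 1 and 2 had 54.8 and 44.1 CPM, against 0.976 to 18.1 CPM in the other PBS livers. The range was 6.43-fold in GH and 56.1-fold in PBS. The lowest value, PBS replicate 5, rests on 21 reads (95% exact Poisson interval 0.604 to 1.49 CPM) and the highest, PBS replicate 1, on 1265 (51.8 to 57.9 CPM), and these intervals cover counting error only. Nr1d2 (chr14:18204054-18239127), its paralog, ran from 31.3 to 82.0 CPM in GH livers with a median of 39.3, and from 21.1 to 98.0 CPM in PBS livers with a median of 49.2. GH replicates 5 and 6 had 82.0 and 69.9 CPM and PBS replicates 1 and 2 had 92.0 and 98.0 CPM, and the other 8 livers had 56.2 CPM or less. Nr1d1 shares 263 exonic bases on the opposite strand with Thra, which encodes a thyroid hormone receptor and had 9.18 to 12.2 CPM in GH livers and 8.48 to 12.0 CPM in PBS livers. Thra thus varied 1.44-fold over all 12 livers. Cry2 shares 295 bases on the opposite strand with D930015M05Rik, which had 43 counts over all libraries.

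**Figure D1:**
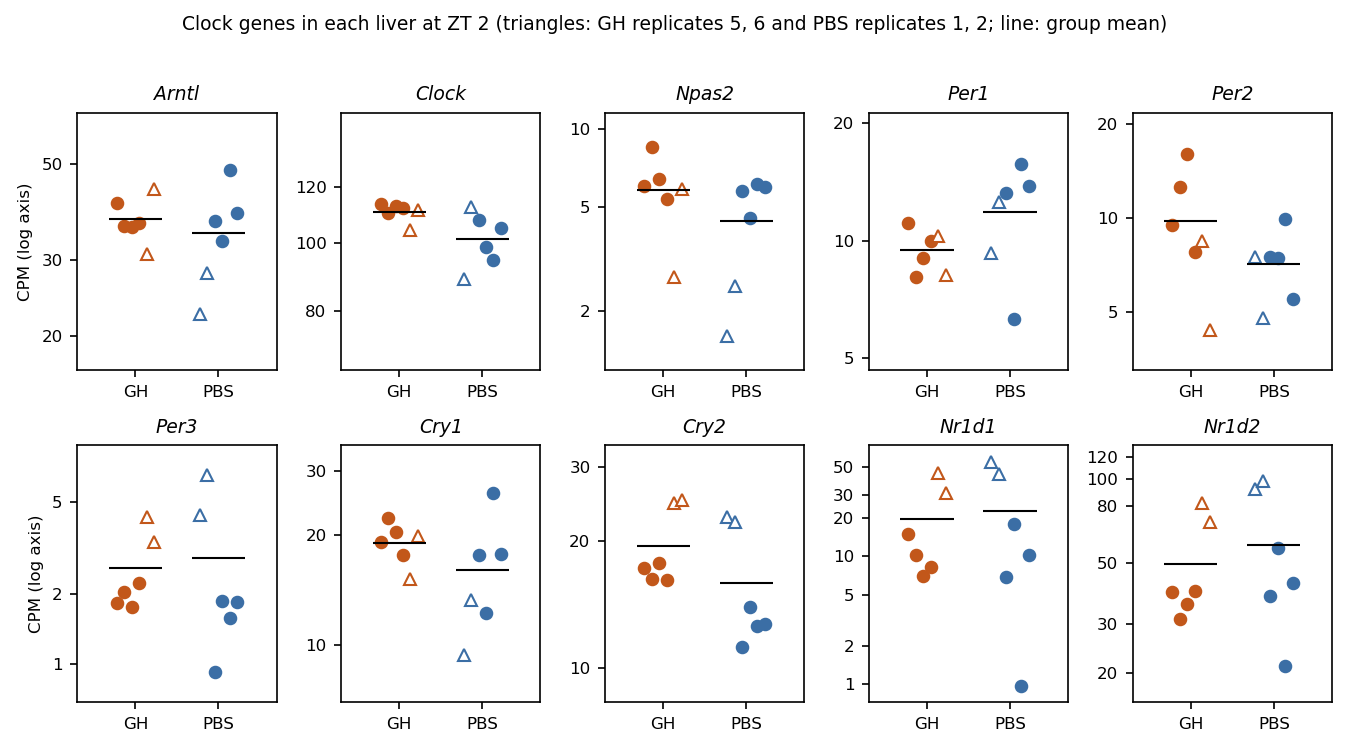
Level of each clock gene (CPM, log axis) in the 6 GH livers and the 6 PBS livers, with a line at each group mean; open triangles are GH replicates 5 and 6 and PBS replicates 1 and 2. The triangles are the 4 highest values of Per3, Cry2, Nr1d1 and Nr1d2, while Clock stays between 88.8 and 113 CPM in all livers.

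No member passed the test between GH and PBS livers. By edgeR's quasi-likelihood test with Benjamini-Hochberg adjustment over all tested genes, 0 of 10 members changed at an adjusted p under 0.05, where 4.79% of all tested genes (682) did. None of the members had an unadjusted p under 0.05, which 19.0% of tested genes had, and DESeq2 also called 0 members, with 7.68% of its tested genes called. GH and PBS values overlapped for all 10 members, where 3.18% of tested genes had groups that did not overlap. The median log2 fold change (GH minus PBS) was 0.12 over the members and 0.00 over all tested genes. The p-values measure the spread between these numbered samples, since the labels do not say from which litters or cages the animals came.

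How large a change the data leave room for differed widely between members, and the widest intervals belonged to Nr1d1, Per3 and Nr1d2, the members with the widest spread between livers. Clock averaged 111 ± 3.39 CPM in GH livers and 101 ± 8.85 CPM in PBS livers (SD, n = 6 each), a log2 fold change of 0.13 ± 0.06 (SE, edgeR adjusted p = 0.294) with a 95% interval from -0.01 to 0.26. Arntl averaged 37.2 ± 4.36 CPM in GH livers and 34.6 ± 9.01 CPM in PBS livers, a log2 fold change of 0.11 ± 0.15 with an interval from -0.22 to 0.43 (adjusted p = 0.770). For Nr1d1, which averaged 19.5 ± 15.4 CPM in GH livers and 22.5 ± 21.8 CPM in PBS livers, the log2 fold change was -0.21 ± 0.80 and the interval ran from -1.99 to 1.57 (adjusted p = 0.928). That interval spans from 0.252-fold to 2.98-fold, so the data leave room for a change of Nr1d1 in either direction within these bounds. For Per1 the change was -0.33 ± 0.18 on that scale (adjusted p = 0.346), and for Per2 it was 0.46 ± 0.27 (adjusted p = 0.400). Those of Npas2, Cry1 and Cry2 were 0.39, 0.25 and 0.29, with 5 GH livers of 6 above the PBS mean for Npas2 and Cry1 and 6 of 6 for Cry2. Per3 and Nr1d2 had -0.13 and -0.22, and 2 of 6 GH livers above the PBS mean.

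Without GH replicates 5 and 6 and PBS replicates 1 and 2, a fit chosen after the values were seen, 1 member passed. The share of all tested genes called in that fit is not given here, so this count has no background. Cry2 was higher in GH livers in that fit, with a log2 fold change of 0.42 (edgeR adjusted p = 0.0204), where the fit over all 12 livers had given 0.29 (adjusted p = 0.477). Cry2 is also a gene in which the 4 omitted livers stand apart, so the omission is not independent of it. In the same fit the log2 fold changes of Nr1d1, Per3 and Arntl were 0.17, 0.34 and -0.08, the opposite sign to the fit over all livers, with adjusted p of 0.930, 0.467 and 0.720.

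**Figure D2:**
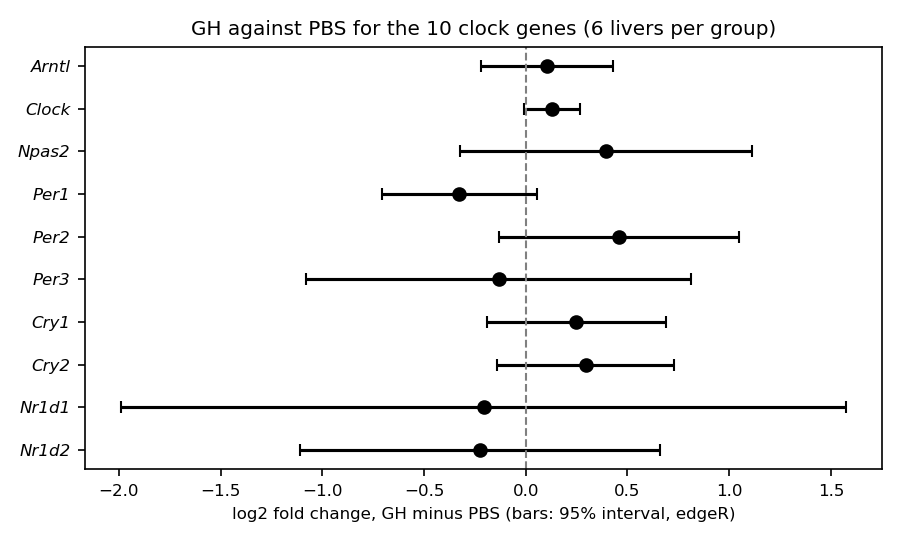
Log2 fold change (GH minus PBS) of the 10 clock genes from edgeR's fit over 6 livers per group, with bars for the 95% interval. All intervals include 0; the narrowest, for Clock, runs from -0.01 to 0.26 and the widest, for Nr1d1, from -1.99 to 1.57.

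Levels were compared between members per kilobase of annotated exon. Nr1d2 averaged 9.16 ± 3.89 CPM per kb in GH livers and 10.7 ± 5.72 in PBS livers, and Clock 8.06 ± 0.25 in GH livers and 7.37 ± 0.64 in PBS livers. Nr1d1 averaged 6.33 ± 4.99 CPM per kb in GH livers and 7.32 ± 7.10 in PBS livers, Cry1 5.72 ± 0.73 in GH livers and 4.81 ± 1.75 in PBS livers, and Arntl 4.95 ± 0.58 in GH livers and 4.60 ± 1.20 in PBS livers. The ranges of Nr1d2 and Nr1d1 overlapped those of the other 3 in both groups, so ranges do not set the order of these 5, except for Clock. Members were compared by their ranges over a group and not liver by liver. Clock lay above Cry1 and Arntl in every GH liver (7.59 or more for Clock, at most 6.67 for Cry1 and 5.80 for Arntl), and above Arntl, by a narrow margin, in PBS livers (6.47 or more for Clock, at most 6.45 for Arntl). Cry2 followed with 3.09 ± 0.66 CPM per kb in GH livers and 2.52 ± 0.82 in PBS livers. Per1 at 1.68 in GH livers and 2.10 in PBS livers, Per2 at 1.67 in GH livers and 1.22 in PBS livers, and Npas2 at 1.22 in GH livers and 0.924 in PBS livers overlapped each other. Per3 was lowest, with a mean of 0.269 CPM per kb in GH livers, below every other member in all 6, and 0.296 in PBS livers, where it overlapped Npas2. Exon lengths are those of the union of annotated exons, so a gene whose liver transcript uses fewer of them is understated.

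The spread between livers of 1 group differed more between members than between treatments. On the log2 CPM scale (prior count 2) the SD of Nr1d1 was 1.08 in GH livers and 2.07 in PBS livers, and its mean SD exceeded that of 99.9% of tested genes. Nr1d2 had an SD of 0.57 in GH livers and 0.84 in PBS livers, and its mean SD exceeded that of 97.6% of genes. Per3 had an SD of 0.50 in GH livers and 0.99 in PBS livers, above 98.1% of genes. The SD that counting alone gives at these depths was 0.07 for Nr1d1, 0.04 for Nr1d2 and 0.19 for Per3. Clock stood at the other end, with an SD of 0.05 in GH livers and 0.13 in PBS livers, above 5.49% of genes. Arntl had 0.17 in GH livers and 0.38 in PBS livers. The median SD over all tested genes was 0.19 in GH livers and 0.21 in PBS livers, and over the 10 members 0.40 in GH livers and 0.50 in PBS livers.

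For 9 of 10 members the SD was smaller in GH livers, where 60.1% of all tested genes had a smaller SD in GH. Per2 was the exception, with 0.63 in GH livers and 0.37 in PBS livers. In a two-sided permutation test of the absolute deviations from the group median over all assignments of the livers to 2 groups of 6, 2 members had an unadjusted p under 0.05, where 4.96% of tested genes had. Cry1 had an SD of 0.19 in GH livers and 0.51 in PBS livers (exact permutation p = 0.0390, adjusted over all tested genes 0.992), and Clock gave p = 0.0195 (adjusted 0.840) by the same exact test. The smallest p this design allows is 0.00216, and no member passed after adjustment. Without the 4 livers that stand apart the SD was smaller in GH for 8 of 10 members. PBS replicate 5 decided the size of the difference for Nr1d1: the SD in GH minus that in PBS was -0.997 over all 12 livers, -1.30 without the 4 livers and -0.21 without PBS replicate 5.

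**Figure D3:**
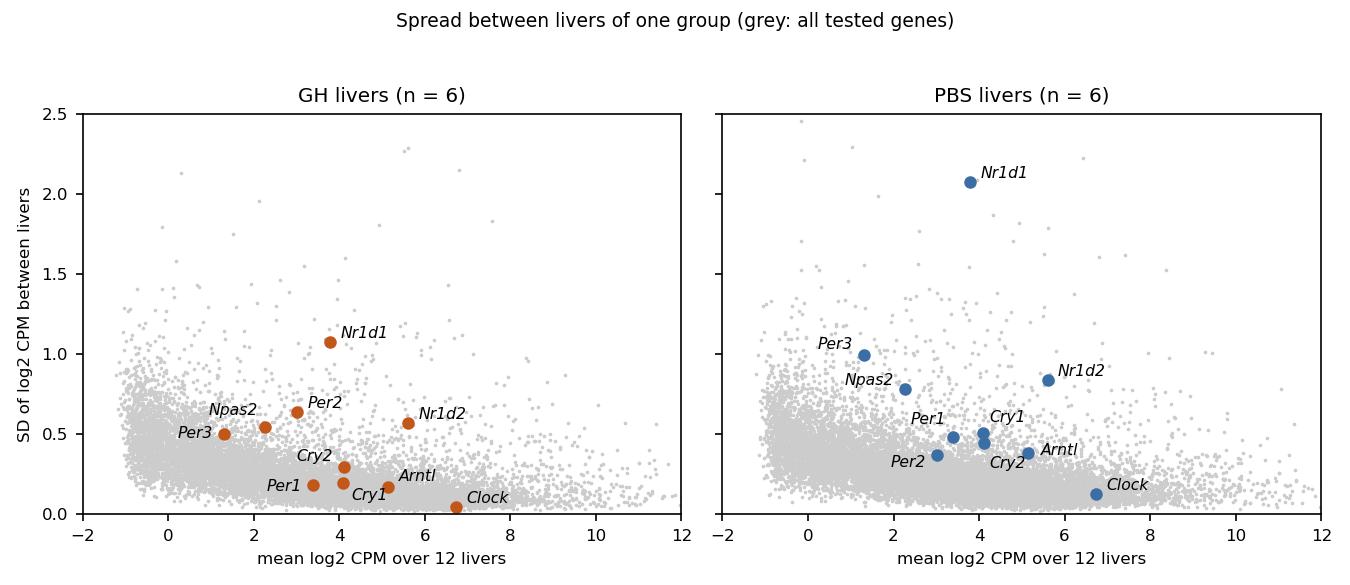
SD of log2 CPM between the 6 livers of a group against the mean log2 CPM over 12 livers, with GH livers on the left, PBS livers on the right, all tested genes in grey and the 10 clock genes in colour. Nr1d1 lies far above genes of similar level in both panels (SD 1.08 in GH and 2.07 in PBS), and Clock lies among the steadiest.

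The livers could be ordered by the balance of Nr1d1 to Arntl, the repressor and the gene it represses. The ratio of their CPM was 1.45 in GH replicate 5 and 0.715 in GH replicate 6, against 0.196 to 0.371 in the other GH livers. It was 2.43 in PBS replicate 1 and 1.58 in PBS replicate 2, against 0.0201 to 0.544 in the other PBS livers. High and low ratios thus occurred in either group. PBS replicate 5 lay at the low end: it had the lowest Nr1d1 and Nr1d2 of all 12 livers and the highest Arntl, Cry1 and Per1.

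Of 17 genes known as outputs of the loop, 2 (Dbp and Tef) also had their 4 highest values in these 4 livers, and 0 their 4 lowest. Dbp, a PAR bZIP factor driven by E-boxes, had 21.0 and 8.61 CPM in GH replicates 5 and 6, against 0.912 to 2.46 CPM in the other GH livers. It had 32.2 and 22.3 CPM in PBS replicates 1 and 2, against 0.604 to 0.953 CPM in the other PBS livers. Tef, its relative, had 105 and 83.9 CPM in GH replicates 5 and 6 and 106 and 89.0 CPM in PBS replicates 1 and 2, and at most 61.2 CPM elsewhere. Of 24 regulators of the loop 2, Ciart and Bhlhe41, repressors of the ARNTL heterodimer, were highest in these 4 livers, at 1.08 CPM or more for Ciart and 1.23 CPM or more for Bhlhe41. Over all tested genes, 2.23% (318) had their 4 highest values in these 4 livers and 1.33% (190) their 4 lowest, against 4 of 10 members, by which the livers had been picked out.

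Other measures moved with this split, and their part in it was not tested. The glucocorticoid target Tsc22d3 was lowest in the same 4 livers, with 229 and 172 CPM in GH replicates 5 and 6 and 127 and 115 CPM in PBS replicates 1 and 2, and 270 CPM or more elsewhere. The other 3 glucocorticoid targets examined did not share that pattern. Fkbp5 had 67.6 and 96.6 CPM in GH replicates 5 and 6 and 118 and 76.6 CPM in PBS replicates 1 and 2, and 21.4 to 69.8 CPM elsewhere, so it tended the other way. Zbtb16 was highest in GH replicate 5 and PBS replicate 1, and Sgk1 in PBS replicate 5. Hsp90aa1, a heat shock gene, was lowest in them too, at 104 CPM or less, and Egr1, an immediate-early gene, was highest in them, at 4.31 CPM or more. Summed hepatocyte markers ran from 72129 to 100986 CPM in the 4 livers and from 85067 to 108911 CPM in the other 8. That sum is mostly Alb, which averaged 62486 CPM in GH livers and 74870 CPM in PBS livers. Among single markers, the hepatocyte gene Hnf4a had its 4 highest values in the 4 livers, as 2.23% of all tested genes had. The stellate gene Col3a1 had its 4 lowest there, as 1.33% had. Summed cholangiocyte markers ran from 32.4 to 38.1 CPM in the 4 livers and from 35.1 to 55.6 CPM in the other 8. The labels give ZT 2 for all 12 livers.

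**Figure D4:**
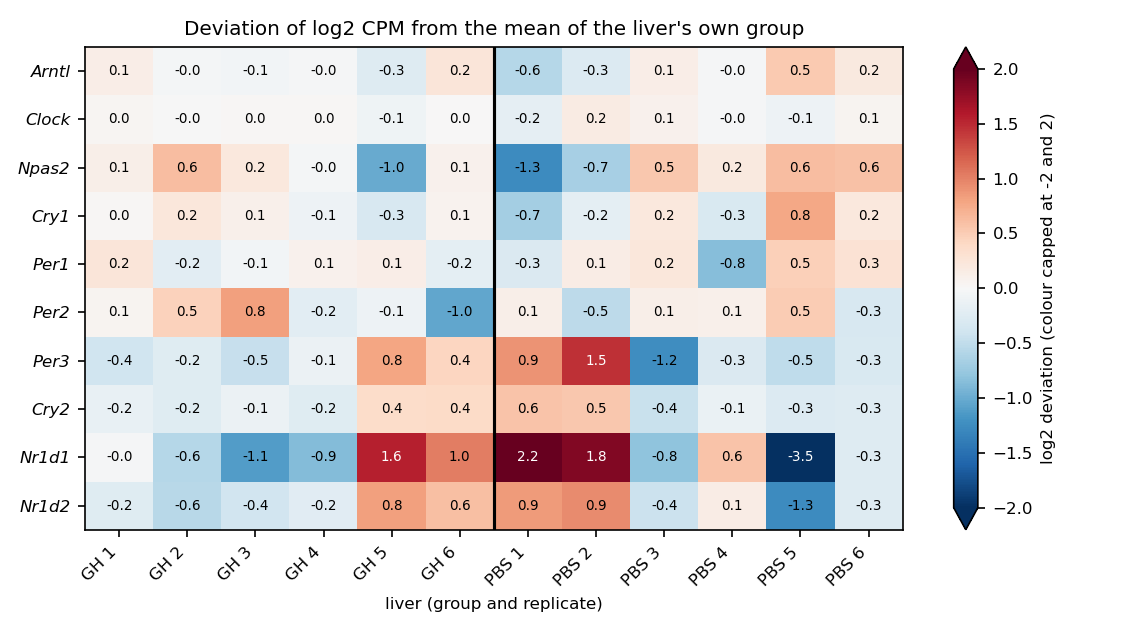
Deviation of log2 CPM from the mean of the liver's own group, for each clock gene (rows) and liver (columns, GH left of the black line and PBS right of it), with the colour capped at -2 and 2. GH 5, GH 6, PBS 1 and PBS 2 are above their group mean in Per3, Cry2, Nr1d1 and Nr1d2, and PBS 5 is 3.5 below it in Nr1d1.

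Some pairs of members moved together between livers of the same group, and most of the 45 pairs did not pass. Over the 12 deviations from the group mean, 17 of 45 pairs had a Pearson correlation that passed at an adjusted p under 0.05 (100000 permutations within groups, Benjamini-Hochberg over the 45 pairs), 9 positive and 8 negative, and all 17 had the same sign in both groups. Spearman's rho gave 13. The median absolute r over the 45 pairs was 0.56, and 0.30 between a member and all other tested genes. Of the 17 pairs, 14 hold a member in which the 4 livers stand apart. Since those livers were picked out by their high values of these members, no correlation over all 12 is given for these pairs. Without the 4 livers 0 of 45 pairs passed, with 4 at an unadjusted p under 0.05, where the smallest p that 576 arrangements of 8 livers allow is 0.00174. Within groups of 6, 0 of 90 tests passed after adjustment, and 720 pairings allow no p below 0.00139.

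Arntl, Npas2 and Cry1 are 3 genes held to be repressed by NR1D1 through ROR elements. Over 12 livers all 3 of their pairs passed by Pearson's r, and 1, Npas2 with Cry1, passed by rank. Arntl and Npas2 had r = 0.83 and rho = 0.61 over 12 livers (permutation p = 0.00208, adjusted 0.0102; for rho p = 0.0524, adjusted 0.118). Arntl and Cry1 had r = 0.89 and rho = 0.67 (permutation p = 0.00218, adjusted 0.0102; for rho p = 0.0415, adjusted 0.110). Without the 2 livers farthest from the median of Arntl, PBS replicates 1 and 5, r was 0.74 for Npas2 and 0.65 for Cry1. Without PBS replicate 1 alone the Pearson calls were lost, with an adjusted permutation p of 0.0718 for Npas2 and 0.0511 for Cry1. In the 8 livers without the 4 that stand apart neither pair had a p under 0.05: Arntl and Npas2 had r = 0.31 and rho = 0.38 (exact p = 0.396 and 0.441), and Arntl and Cry1 r = 0.83 and rho = 0.43 (exact p = 0.113 and 0.396). Among GH livers r was 0.56 for Arntl with Npas2 and 0.54 for Arntl with Cry1 (exact p = 0.258 and 0.260), and among PBS livers 0.94 and 0.95 (exact p = 0.00139 and 0.00972). Npas2 and Cry1 had r = 0.83 and rho = 0.92 (permutation p = 0.00093, adjusted 0.0102; for rho p = 0.00015, adjusted 0.00405). Their r was 0.96 among GH livers (exact p = 0.00278) and 0.83 among PBS livers (exact p = 0.0264), and 0.72 in the 8 livers (exact p = 0.00521). Without GH replicate 5 and PBS replicate 1, the livers farthest from the median of Npas2, their r was 0.69.

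Pairs of the Nr1d genes held in part within the other 8 livers. Nr1d1 and Nr1d2 had r = 0.94 and rho = 0.81 there (exact p = 0.0312 for r and 0.0365 for rho). Cry1 and Nr1d2 had r = -0.97 and rho = -0.86 (exact p = 0.00347 and 0.0208), and Cry1 and Nr1d1 r = -0.87 and rho = -0.64 (exact p = 0.0799 and 0.115). Arntl had r = -0.80 with Nr1d1 and -0.83 with Nr1d2 (exact p = 0.137 and 0.125), and rho of -0.36 and -0.33. The 8 livers include PBS replicate 5, which had the lowest Nr1d1 and Nr1d2 and the highest Arntl and Cry1 of all livers. That liver can carry much of these r, and r in the 8 livers without it is not given. The pairs of Per3 and Cry2 that the 4 livers set were weaker in the other 8: r was 0.63 for Per3 with Cry2 (exact p = 0.318), 0.13 for Per3 with Nr1d1 (exact p = 0.844) and 0.34 for Cry2 with Nr1d2 (exact p = 0.597). After adjustment over the 45 pairs none of these passed.

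Of the 24 pairs that hold Clock, Per1 or Per2, 0 passed after adjustment by r or by rho, and 2, Per2 with each Nr1d gene, had an unadjusted permutation p under 0.05 for r. Arntl and its partner Clock had r = 0.23 and rho = 0.10 over 12 livers (permutation p = 0.617, adjusted 0.742). Arntl and Per2 had r = 0.02 and rho = -0.05 (permutation p = 0.944, adjusted 0.965), and Per1 and Per2 r = 0.01 and rho = -0.06 (permutation p = 0.974, adjusted 0.974). Without the 2 livers farthest from the median of the first gene these r were 0.08, -0.22 and 0.15. Per2 and Nr1d2 had r = -0.69 among GH livers and -0.65 among PBS livers (exact p = 0.146 and 0.169), and r = -0.53 and rho = -0.76 in the 8 livers (exact p = 0.144 and 0.0278). Per2 and Nr1d1 had r = -0.64 among GH livers and -0.65 among PBS livers (exact p = 0.172 and 0.163). Arntl and Per1 had r = 0.40 and rho = 0.48 over 12 livers (permutation p = 0.349, adjusted 0.507; for rho p = 0.172, adjusted 0.287), and r = 0.05 without PBS replicates 1 and 5. In the 8 livers they had r = 0.79 and rho = 0.81 (exact p = 0.153 and 0.0330).

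**Figure D5:**
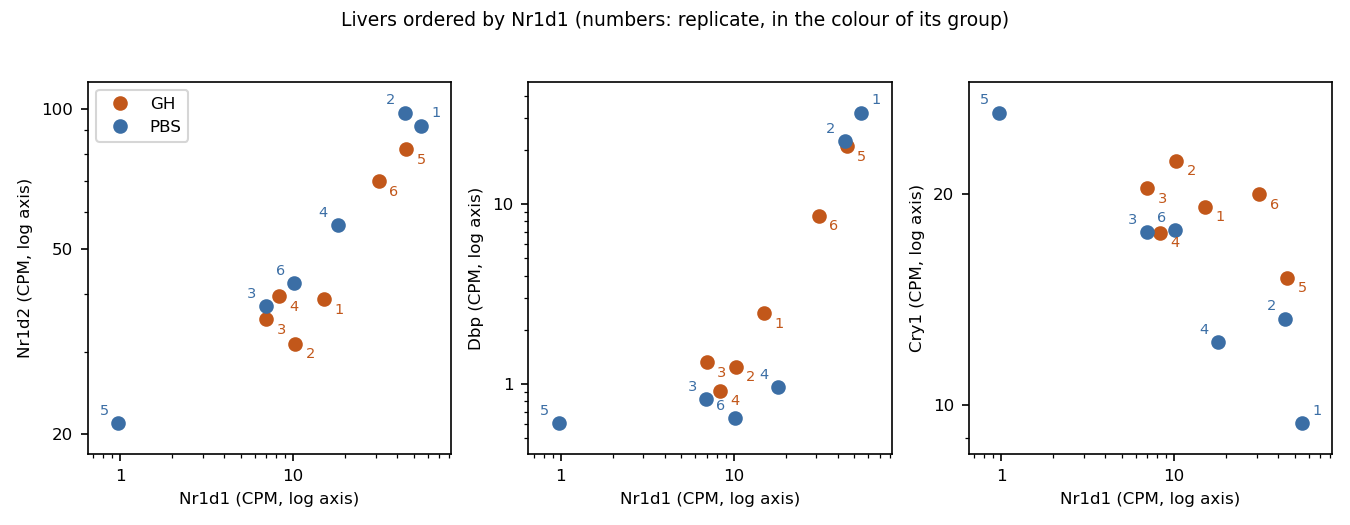
Nr1d2, Dbp and Cry1 against Nr1d1 (CPM, log axes) in the 6 GH livers and the 6 PBS livers, numbered by replicate. GH replicates 5 and 6 and PBS replicates 1 and 2 lie at the high end of Nr1d1, with Dbp at 8.61 CPM or more, and PBS replicate 5 lies at the low end with the highest Cry1.

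The wider clock network was read from 3 further lists. Of 24 regulators of the loop (ROR receptors, DEC factors, kinases, ubiquitin ligases and cofactors) 0 rose and 0 fell in GH livers by edgeR's test, where 2.27% of all tested genes rose and 2.52% fell, and the median log2 fold change of the list was 0.01. With library totals in place of TMM as the scaling, 24.3% of the genes called over all tested genes were higher in GH livers, against 47.4% with TMM. Rora, the activating receptor at ROR elements, had 144 to 185 CPM in GH livers and 119 to 155 CPM in PBS livers (log2 fold change 0.25 ± 0.08, adjusted p = 0.0828). It did not pass, and its groups overlapped. At an unadjusted p under 0.05, 4 of the 24 were higher in GH livers, where 9.15% of all tested genes were, and DESeq2, which called 3.63% of its tested genes higher, called 2 of them, Rora (adjusted p = 0.0414) and Csnk1d (adjusted p = 0.0351). Csnk1d, a kinase of PER proteins that was picked out after its values were seen, had 54.4 to 65.7 CPM in GH livers and 45.3 to 53.6 CPM in PBS livers, without overlap (edgeR log2 fold change 0.22 ± 0.07, adjusted p = 0.0740). The repressors Bhlhe40, Bhlhe41 and Ciart had log2 fold changes of -0.23, -0.02 and -0.01.

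Of 17 output genes 0 rose and 4 fell in GH livers, where 2.52% of all tested genes fell, and the median log2 fold change was -0.31. The factors nearest to the loop were not among the 4: on the log2 scale Dbp differed by -0.70 ± 1.21 (adjusted p = 0.816), Tef by 0.24 ± 0.42 (adjusted p = 0.815), Hlf by 0.15 ± 0.16 (adjusted p = 0.674) and Nfil3, the repressor at D-boxes, by 0.11 ± 0.22 (adjusted p = 0.840). The 4 that fell are enzymes. Alas1, the first enzyme of haem synthesis, had 25.3 to 53.9 CPM in GH livers and 48.4 to 293 CPM in PBS livers and fell by 1.93 ± 0.39 on the log2 scale (adjusted p = 0.0202). Cyp7a1, whose enzyme starts the classic pathway from cholesterol to bile acids, had 2.56 to 12.7 CPM in GH livers and 13.9 to 46.9 CPM in PBS livers, without overlap, and fell by 1.80 ± 0.44 (adjusted p = 0.0446). Por, the reductase that serves cytochromes P450, had 24.8 to 84.0 CPM in GH livers and 77.9 to 162 CPM in PBS livers and fell by 1.40 ± 0.29 (adjusted p = 0.0216). Nampt, an enzyme of NAD synthesis, had 35.6 to 49.2 CPM in GH livers and 45.8 to 66.2 CPM in PBS livers and fell by 0.36 ± 0.09 (adjusted p = 0.0357). Each of these calls was lost in some fits with 1 library left out: that of Alas1 without GH replicate 2 or 3 (adjusted p up to 0.0518), that of Por without GH replicate 1, 3, 4 or 5 (up to 0.0543), that of Nampt without GH replicate 1, 2, 3 or 5 or PBS replicate 4 or 6 (up to 0.0918), and that of Cyp7a1 in 10 of 12 such fits, all but those without PBS replicate 1 or 2 (up to 0.101). Their direction held in all 19 alternatives. Among the outputs Lonrf3 was higher at an unadjusted p under 0.05, and DESeq2 called it too. DESeq2 called 4 of the 17 outputs lower, where it called 4.06% of its tested genes lower.

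The third list held 12 genes that respond to hormones, heat or growth factors, signals held to reach the Per genes too. By edgeR's test 0 rose and 0 fell, where 2.27% of all tested genes rose and 2.52% fell. The median log2 fold change of the list was -0.20. These genes are responders, so signalling to the Per promoters was not itself measured. The largest changes were -0.74 for Egr1, -0.58 for Fos, -0.49 for Hsph1 and 0.46 for Tsc22d3, and their adjusted p ran from 0.147 to 0.551. At an unadjusted p under 0.05, 3 of the 12 were lower in GH livers (Hspa8, Hsph1 and Dnajb1, heat shock genes), where 9.83% of all tested genes were, and DESeq2 called 0.

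Genes with the pattern nearest to 3 members were sought among 11530 genes with a mean log2 CPM of at least 1, by Pearson correlation of within-group deviations over 12 livers, given as a description of points that share their libraries. Nearest to Arntl were Rasgef1b (r = 0.93), Chka (0.92), Noct (0.92, under its older symbol Ccrn4l), Mrps31 (0.91) and Gm13680 (0.91). Noct encodes a rhythmic phosphatase first described as a deadenylase. Nearest to Nr1d1 were Atg12 (0.97), Osbpl1a (0.96), Usp3 (0.95), H6pd (0.94) and Klf11 (0.94). In the 8 livers without the 4 that stand apart their r with Nr1d1 ran from 0.92 to 0.97. Those 8 include PBS replicate 5, which had the lowest Nr1d1 of all 12 livers at 0.976 CPM. That liver can carry much of these r, and r without it is not given. Nearest to Per2 were Nubp1 (0.92), Bax (0.90), A430005L14Rik (0.89), 1500032L24Rik (0.89) and Fam3a (0.89). In the same 8 livers the r with Per2 ran from 0.65 (Fam3a) to 0.89 (Bax). For the genes nearest to Arntl the r there ran from 0.56 (Mrps31) to 0.90 (Rasgef1b). None of these 15 genes passed the test between GH and PBS livers, with edgeR adjusted p from 0.0623 to 0.940.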

How the data were processed

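Exonic reads of total RNA from 12 livers (6 GH, 6 PBS) were analysed. The authors deposited raw counts per gene, without normalization, in 1 table of 38087 genes, of which 10628 had no count. The labels' protocols name a stranded kit with ribosomal depletion, and the submitters' processing notes name STAR 2.4.0i and mm10; the sources used here do not give the counting program, its annotation or its use of strand, so reads shared with overlapping genes may be in either count. Coordinates and exon lengths are from GENCODE M21, which held 36308 of the identifiers.

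Counts were filtered with filterByExpr (minimum count 10), scaled by TMM and tested with edgeR 4.0.16 in R 4.3.3 (robust quasi-likelihood F test, two-sided, group as the only term, Benjamini-Hochberg over 14235 genes, threshold 0.05). SE are the absolute log2 fold change over the square root of F, and 95% intervals use the test's degrees of freedom. Spread and covariation used log2 CPM with a prior count of 2, in Python 3.11.15 with scipy 1.17.1. All were tested on simulated data. Library totals were 19523104 to 23278931, and no pair of libraries within a group differed by as little as sampling noise (chi-square per degree of freedom at least 8.95). Alternatives were other scaling (library totals, RLE), no filter, DESeq2 1.42.0, a replicate block, another prior count and libraries left out.

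Named were all members and genes of the regulator and output lists that passed, with Dbp, Tef, Hlf, Nfil3, Rora, Bhlhe40, Bhlhe41 and Ciart in any case. Up to 4 of the largest changes among the responders to hormones, heat or growth factors were named. Overlapping genes and the 5 genes nearest to Arntl, Nr1d1 and Per2 were named too. Csnk1d, Lonrf3, Tsc22d3, Hsp90aa1, Hspa8, Dnajb1, Fkbp5, Zbtb16, Sgk1, Dcn, Hba-a1 and Alas2 were also named after their values were seen. So were the single markers Alb, Cps1, Hnf4a and Col3a1. Members and lists were chosen with earlier results of these data known. A gene of the regulator list that the rule also names is not reported here.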

Additional observations from a re-analysis of the deposited data

Results flagged for a closer look

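In 1 of the 20 sets of 6 livers examined (10 members, 2 groups), the end value stood far from the others. Clock in GH replicate 5 was the lowest of its group at 104 CPM, against 110 to 113 CPM in the other GH livers. On the log2 CPM scale this gap was 0.669 of the group's whole range, above Dixon's critical value for 6 samples. Chance alone flags about 1 in 20 such sets. The value of Clock in that liver lay inside the range of the PBS livers, 88.8 to 113 CPM.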

How the results depend on the processing

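Of 14235 genes, 682 passed; DESeq2 gave 1072 and the fit with the replicate number as a block 391. With 1 library left out the count ran from 434 to 854, lowest without GH replicate 2 (434) and GH replicate 1 (447), and without GH replicate 6 and PBS replicate 5 it was 1022. Members called stayed at 0, except for 1 (Cry2) without the 4 livers that stand apart. The count of pairs that covary ran from 9 (without PBS replicate 1) to 17 with 1 library left out, was 18 without GH replicate 6 and PBS replicate 5, 0 without the 4 livers and 23 with the block. With the block the calls of Alas1 and Cyp7a1 were lost (adjusted p = 0.0925 and 0.140). That of Cyp7a1 was also lost with no filter on low counts (0.0776) and without GH replicate 6 and PBS replicate 5 (0.0916), and that of Nampt without the 4 livers (0.0714). The cause of these changes was not tested.

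Uncalled values that changed sign were these. The log2 fold change of Per3 was 0.0569 with the block and 0.34 without the 4 livers, and -0.346 to 0.29 with 1 library, or GH replicate 6 and PBS replicate 5, left out. That of Nr1d1 was 0.17 without the 4 livers and -0.65 to 0.28 with 1 library left out, and that of Arntl -0.0804 without the 4 livers. The SD difference of Npas2 (GH minus PBS) was 0.0862 without the 4 livers and -0.53 to 0.00753 with 1 library left out. The correlation of Arntl with Clock was -0.44 without the 4 livers and -0.42 to 0.629 with 1 library, or that pair, left out. That of Arntl with Per2 was -0.0490 by rank and -0.26 to 0.30 with 1 left out. That of Per1 with Per2 was -0.48 without GH replicate 6 and PBS replicate 5, -0.0914 without the 4 livers, -0.16 with the block, -0.0629 by rank, and -0.18 to 0.11 with 1 left out. Same-numbered livers did not deviate together (r from -0.17 to 0.16). These weak correlations cannot show whether the numbers pair animals by cage, litter or handling. Low counts limit Per3 (19 reads in its lowest library) and Nr1d1 in PBS replicate 5 (21 reads).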
